A study of Mus musculus with 6 samples.

Results

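The genes described here encode the digestive machinery of the lysosome: 42 genes for soluble hydrolases, their cofactors, proteins of the lysosomal membrane, subunits of the proton pump, and the regulators Tfeb and Grn. They were chosen by gene symbol. All 42 are listed among the 15528 genes of the deposited count table, and 41 had enough counts to be tested. RNA came from mouse cells that the labels call lymphatic endothelial, the cells lining lymph vessels. In 3 libraries, called RBC libraries below, the cells had been treated with red blood cells, and 3 control libraries carry no treatment label. All 6 are labelled 24 h. The dose and origin of the red cells, the handling of the controls and the strain of the cells were not stated in the labels, and the series as a whole concerns brain injury after subarachnoid hemorrhage.

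Lysosomes are acidic compartments in which cells break down material taken up from outside or delivered by autophagy. Hydrolases reach them tagged with mannose 6-phosphate and work at the acidic pH that the vacuolar proton pump maintains. The transcription factor TFEB raises many of these genes together by binding E-box motifs in their promoters when lysosomes are stressed or nutrients run short, and cells that engulf red blood cells, such as macrophages of the spleen, degrade them in lysosomes. The comparison of RBC with control libraries asks whether the transcripts for this degradative capacity were higher once red cells were present.

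None of the 41 tested genes passed the test for a rise or a fall with red blood cells. In edgeR's quasi-likelihood test with Benjamini-Hochberg adjustment over 11208 genes, 0 of 41 passed an adjusted p of 0.05, where 1.46% of all tested genes did (1.16% higher and 0.303% lower). At an unadjusted p under 0.05 there was 1 of 41, against 9.99% of all tested genes. DESeq2 and limma voom also called 0. The median log2 fold change of the 41 genes was -0.03, beside -0.0027 for all tested genes, with 17 positive and 24 negative. Their log2 fold changes ran from -0.14 for Atp6v0d1 to 0.19 for Ctsz with all 6 libraries, and the median size regardless of sign was 0.055, beside 0.083 for all tested genes. Without control replicate 2, described below, Atp6v0d1 was at -0.069 and the lowest was Idua at -0.15.

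The intervals limit how large a change could have been missed. The 95% interval of the fold change lay inside 1.5-fold in either direction for all 41 tested genes, as it did for 87.3% of all tested genes, and inside 1.2-fold for 30 of the 41 (44% of all tested genes). The highest upper bound was 1.31-fold, for Ctsz, and the lowest lower bound 0.738-fold, for Idua, which also had the widest interval and the lowest level of the tested genes. These genes lay above the typical level, with a median of 22.1 FPKM (counts scaled by gene model length and library total) beside 10.63 FPKM for all tested genes. In bulk RNA, fewer cells of a type and less RNA per cell cannot be told apart. No label calls the replicates separate cultures, so p-values and intervals rest on a spread that may be purely technical.

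**Figure D1:**
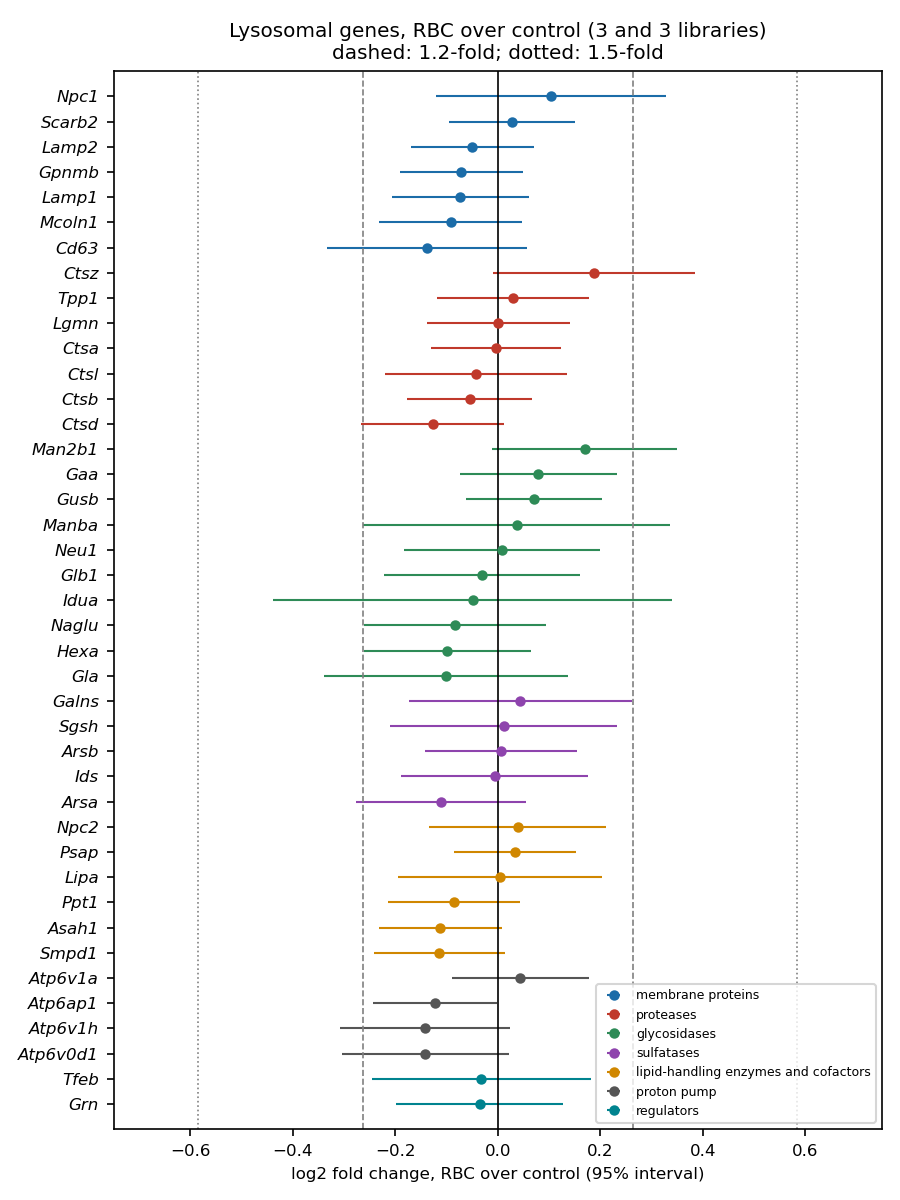
Fitted log2 fold change of each of the 41 tested lysosomal genes, RBC over control, with its 95% interval, ordered within role; points right of 0 are higher in RBC libraries. All intervals lie inside the dotted 1.5-fold lines, and those of Ctsz and Man2b1 reach furthest to the right with both lower bounds just under 0.

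Total counts ranged from 18000112 to 18327247 in the RBC libraries and from 17263359 to 18381419 in the controls. Control replicate 2 departed from all other libraries. Over the 11208 tested genes its mean chi-square per gene was 26.7 to 33.8 against each of the others, whereas pairs within a group that did not include it gave 1.73 to 2.13. Of the lymphatic endothelial markers, Prox1 and Lyve1 have no row in the analysed tables, Pdpn had 2 counts over the RBC libraries and 6 over the controls, and Flt4 had 3.52 ± 0.59 and 3.62 ± 0.73 CPM (mean ± SD over 3 libraries, scaled by library total). The endothelial adhesion molecule Cdh5 had 11 and 7 counts. Only some markers of the lymphatic and pan-endothelial lists were abundant. Nrp2 had 361 ± 16.1 CPM in RBC libraries and 272 ± 52.5 CPM in controls. Nr2f2 had 146 and 161 CPM, Stab1 63.5 and 30.9 CPM and Eng 99.0 and 99.3 CPM. Lower were Pecam1 (13.7 and 14.98 CPM) and Egfl7 (4.32 and 4.11 CPM). Near 0 were Vwf with 15 and 8 counts, Esam with 4 and 7, Tek with 3 and 3 and Kdr with 1 and 0. So were Reln with 5 and 4 counts, Sox18 with 2 and 2 and Itga9 with 1 and 0. Of the 12 genes in each of these lists, 8 have a row. Krt8 (390 and 448 CPM), Msln (190.2 and 187 CPM) and Col1a2 (448 and 464 CPM) of the epithelial, mesothelial and fibroblast lists were abundant too. Lower were Krt18 (32.1 and 44.8 CPM), Krt14 (12.6 and 14.4 CPM) and Pdgfra (12.4 and 8.23 CPM). The other listed members were near 0, with 25 and 35 counts for Cdh1 and 1 and 0 each for Krt5 and Wt1. Pdgfrb had 23 and 32 counts, Dcn 20 and 3, Col1a1 4 and 6, Lum 2 and 0 and Acta2 7 and 7. The cell type is given as labelled. Of the erythroid markers, Hba-a1 averaged 138 CPM in RBC libraries and 0.69 CPM in controls, and Hbb-bs 331 and 1.52 CPM, while Bpgm averaged 42.1 and 39.0 CPM.

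Part of these genes carry the core of the TFEB motif in their promoters. RefSeq promoter windows (build GRCm38.p6, 250 bases before to 50 after a transcription start) were found for 37 of the 42 genes, and Asah1, Atp6v1h, Ctsb, Galns and Npc1 had none. The E-box CACGTG, which reads the same on both strands, occurred in 14 of the 37 genes (37.8%) and in 8.09% of all 27025 genes in the table. The 8 letters TCACGTGA, which contain the E-box, occurred in 6 of the 37 genes (16.2%) and in 1.12% of all. The full TFEB consensus of 10 letters, which adds a G before and a C after these 8, occurred in 0 of the 37 and in 0.37% of all. The stretches below come from the 5 most abundant genes holding an E-box that matches 9 of the 10 consensus letters, and are shown because these genes would be read as candidate TFEB targets from sequence alone. Each is 30 bases, 5′ to 3′ on the gene's strand, with the E-box in capitals.
Lamp1, chr8:13159121-13159150, plus strand: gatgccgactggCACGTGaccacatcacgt
Ctsd, chr7:142387908-142387937, minus strand: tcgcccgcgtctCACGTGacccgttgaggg
Ctsa, chr2:164833749-164833778, plus strand: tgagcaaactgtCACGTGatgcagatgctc
Atp6v0d1, chr8:105566050-105566079, minus strand: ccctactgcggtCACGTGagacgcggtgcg
Mcoln1, chr8:3500462-3500491, plus strand: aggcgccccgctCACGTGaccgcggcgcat
These 5 genes had log2 fold changes of -0.07 (Lamp1), -0.13 (Ctsd), -0.0032 (Ctsa), -0.14 (Atp6v0d1, -0.069 without control replicate 2) and -0.09 (Mcoln1), none past the threshold. With all 6 libraries the median log2 fold change of the 14 tested genes with an E-box was -0.058, with 4 positive. For the 22 tested genes with a window but no E-box it was -0.0011, with 11 positive. Signs changed without control replicate 2. With an E-box, Ctsl, Ctsa and Gla became positive (0.049, 0.0085 and 0.029) and Sgsh negative (-0.092). Without one, Arsb, Tpp1 and Lipa became negative (-0.037, -0.022 and -0.063). The gap between the medians thus leaned on that library and was not tested. A match describes these windows only, and binding was not measured.

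The levels of the 41 tested genes spanned a 328-fold range per length. Ctsb, a cysteine cathepsin, was highest with 296 ± 8.12 FPKM in RBC libraries and 308 ± 8.68 FPKM in controls (SD, n = 3 each). Psap, the precursor of the saposins that present sphingolipids to their hydrolases, followed with 261 ± 6.05 and 256 ± 5.14 FPKM. Lamp1, a heavily glycosylated protein of the lysosomal membrane, had 238 ± 5.69 and 250 ± 13.3 FPKM. Of all 42 genes, 7 averaged at least 100 FPKM over the 6 libraries, 22 lay between 10 and 100, 10 between 1 and 10, and 3 under 1 FPKM. The lowest tested genes were Idua and Manba, with means under 1 FPKM in both groups. Neighbours in this order could lie closer together than their spread, as did Naglu (6.83 ± 0.25 FPKM in RBC libraries and 7.24 ± 0.47 FPKM in controls) and Glb1 (6.73 ± 0.38 and 6.89 ± 0.49 FPKM).

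**Figure D2:**
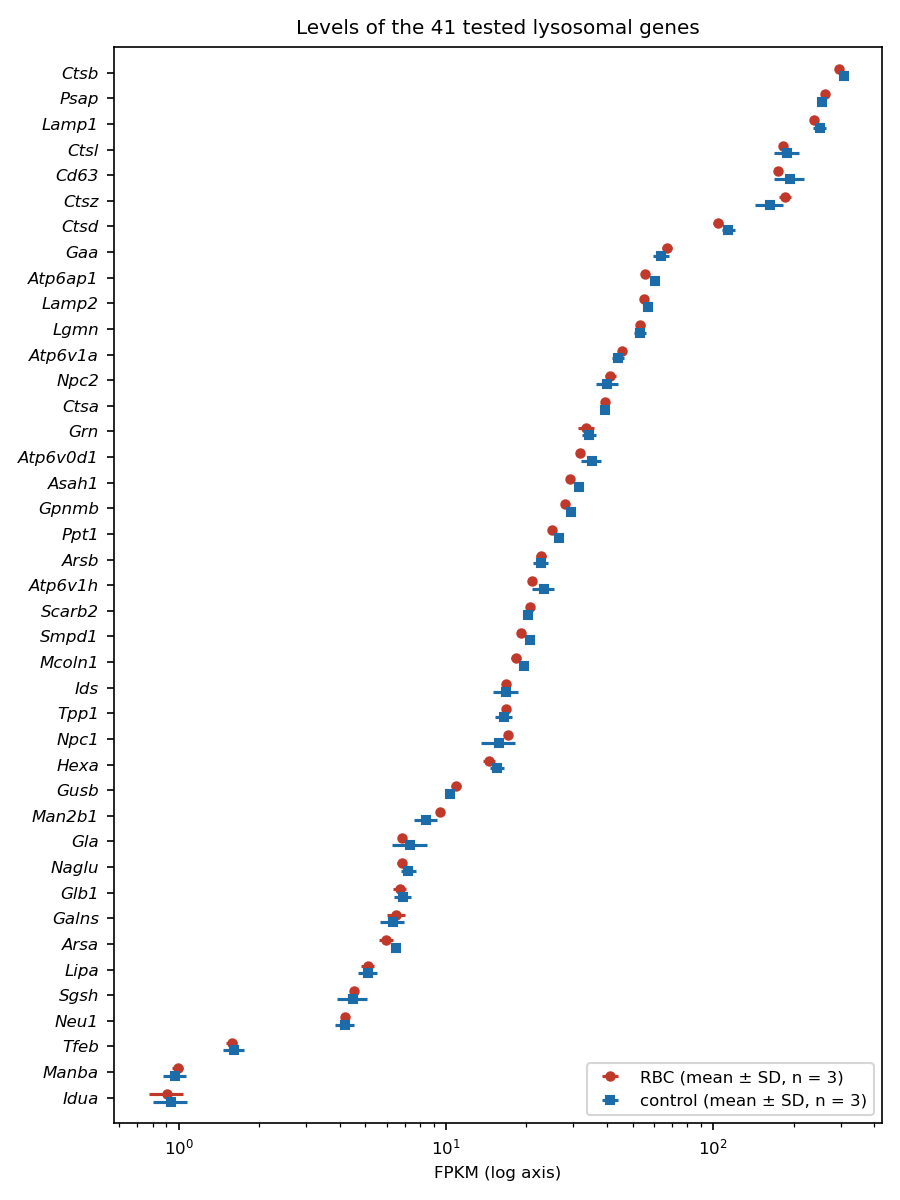
Level of each of the 41 tested lysosomal genes in FPKM on a log axis, as mean ± SD over 3 RBC libraries (red circles) and 3 control libraries (blue squares). The groups lie nearly on top of each other at every level from Ctsb at the top to Idua at the bottom.

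Summed over the whole set, the transcripts took a similar part of each library. The 42 genes held 0.6061%, 0.5887% and 0.5919% of all counts in RBC replicates 1 to 3, against 0.6034%, 0.6245% and 0.5902% in control replicates 1 to 3. The 95% Wilson interval was 0.5852% to 0.5922% for the lowest library and 0.6209% to 0.6281% for the highest. It covers counting error only and no spread between libraries. It is too narrow even for that if reads lacking molecular identifiers are copies of 1 molecule. The groups overlapped, and control replicate 2 was the highest of the 6. The summed level was 2185 ± 41.5 FPKM in RBC libraries and 2229 ± 87.3 FPKM in controls (SD, n = 3 each). By role, the mean sums in RBC libraries were 879 FPKM for proteases, 381 FPKM for lipid-handling proteins, 129 FPKM for glycosidases and 56.4 FPKM for sulfatases, against 883, 380, 126 and 56.7 FPKM in controls. Those of the membrane proteins were 552 ± 6.92 FPKM in RBC libraries and 585 ± 30.5 FPKM in controls. The 4 proton pump genes summed to 154 ± 1.40 FPKM in RBC libraries and 163 ± 3.95 FPKM in controls, and these were the sums, together with those of the membrane proteins, whose libraries did not overlap. The closest membrane protein sums were 558.1 FPKM in RBC replicate 1 and 558.2 FPKM in control replicate 3.

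Membrane proteins showed no call in 7 tested genes, with 2 positive and 5 negative fold changes (median -0.07). Lamp1 had 545, 524 and 523 CPM in RBC libraries, against 573, 578 and 524 CPM in controls, a log2 fold change of -0.07 ± 0.06 (SE; adjusted p = 0.684, edgeR). Cd63, a tetraspanin of late endosomes, lysosomes and exosomes, had 243, 239 and 248 CPM in RBC libraries, against 243, 307 and 253 CPM in controls. Control replicate 2 alone lay above the rest, and the log2 fold change of -0.14 ± 0.09 became -0.03 without it. Gpnmb, a glycoprotein that macrophages raise when their lysosomes are overloaded, had 108, 105 and 107 CPM in RBC libraries, against 116, 109.6 and 111 CPM in controls. Every RBC library was below every control, by little, and the log2 fold change of -0.07 ± 0.05 did not pass (adjusted p = 0.667, edgeR). Mcoln1, the lysosomal calcium channel upstream of TFEB activation, had 37.2, 35.0 and 38.1 CPM in RBC libraries, against 39.7, 37.9 and 40.1 CPM in controls, which overlap. Of the others, the cholesterol exporter Npc1 had 95.4 ± 2.96 CPM in RBC libraries and 88.9 ± 12.9 CPM in controls, where control replicate 2 was the low one at 74.1 CPM. Lamp2, which takes part in autophagosome fusion, and Scarb2, the carrier of glucocerebrosidase, had log2 fold changes of -0.05 and 0.027.

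Among the proteases, Ctsz had the largest fitted fold change of the 41 tested genes. Ctsz encodes cathepsin Z, a carboxypeptidase that is also secreted. It had 279, 251 and 270.2 CPM in RBC libraries, against 216, 267 and 221 CPM in controls. The 3 RBC libraries lay above control replicates 1 and 3, and control replicate 2 lay among them. With all 6 libraries the log2 fold change was 0.19 ± 0.09 (1.14-fold, 95% interval 0.993 to 1.31; adjusted p = 0.53, edgeR). Without control replicate 2 it was 1.22-fold and passed (log2 0.29, adjusted p = 9.07e-09, edgeR), in a fit that called 7.96% of 11297 genes, 4.19% higher. Limma voom with library weights, which gave control replicate 2 a weight of 0.119 and the others 1.2 to 1.86, also called it (adjusted p = 0.000163), as did edgeR with an offset for gene length and GC content (adjusted p = 0.0309). Over all genes these fits called 362 and 208 higher, against 130 in the main test. Over 19 alternative settings its fold change was positive in all, and its adjusted p ran from 9.07e-09 to 0.911.

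The other proteases stayed closer together. Ctsb had 603, 581 and 572 CPM in RBC libraries, against 624, 613 and 590 CPM in controls, with overlap and a log2 fold change of -0.05 ± 0.05. Ctsd, the main aspartic protease, had 209, 193 and 198 CPM in RBC libraries, against 213, 233 and 211 CPM in controls. Its groups did not overlap, and its log2 fold change of -0.13 ± 0.06 did not pass (adjusted p = 0.551, edgeR). Ctsl had 655 ± 8.23 CPM in RBC libraries and 675 ± 73.7 CPM in controls. Its control spread came from replicate 2 at 760.2 CPM. Ctsa, the protective protein of β-galactosidase and neuraminidase, Lgmn, an asparaginyl endopeptidase, and Tpp1, a tripeptidyl peptidase, had log2 fold changes of -0.0032, 0.0014 and 0.03.

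Ctsc, which encodes the dipeptidyl peptidase that activates the granule serine proteases of leukocytes, was the 1 gene too low to test. It had 3, 3 and 5 counts in RBC libraries and 0 in each control. With the control group set to a floor of 3 counts in all the ratio was 3.61. That ratio is no lower bound, because it leaves out the counting error of the RBC counts. The myeloid protease Ctss, from the list of other lysosomal genes, had 31 counts over the RBC libraries and 1 over the controls, a ratio of 30.5 (exact 95% interval 5.09 to 1240, which covers counting error only and no spread between libraries). Some markers of leukocytes, low in both groups, were higher in the same libraries. The pan-leukocyte antigen Ptprc had 36 counts over the RBC libraries and 0 over the controls, and Cd74 had 67 and 0. Of 18 macrophage and other myeloid markers, among them Ctss, 16 are listed and 6 of these had 0 counts in the controls. The low-count filter left 7, of which 4 were called higher (1.16% of all tested genes were). These 4, Ptprc, Cd74, Adgre1 (48 and 0 counts) and Lyz2 (83 and 14), passed the filter through their RBC counts. The filter itself thus favoured such calls. The summed level of the whole list was 57.9 to 62.5 CPM in RBC libraries and 49.5 to 54.7 CPM in controls. Most of it was Csf1r (24.7 ± 1.53 CPM in RBC libraries and 24.98 ± 2.72 CPM in controls), Cd68 (21.2 ± 0.80 and 20.6 ± 1.39 CPM) and Cd14 (7.31 ± 0.32 and 6.66 ± 0.69 CPM), none of them called. No label states that leukocytes came with the red cells, and whether any account for the Ctsc and Ctss counts was not tested.

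**Figure D3:**
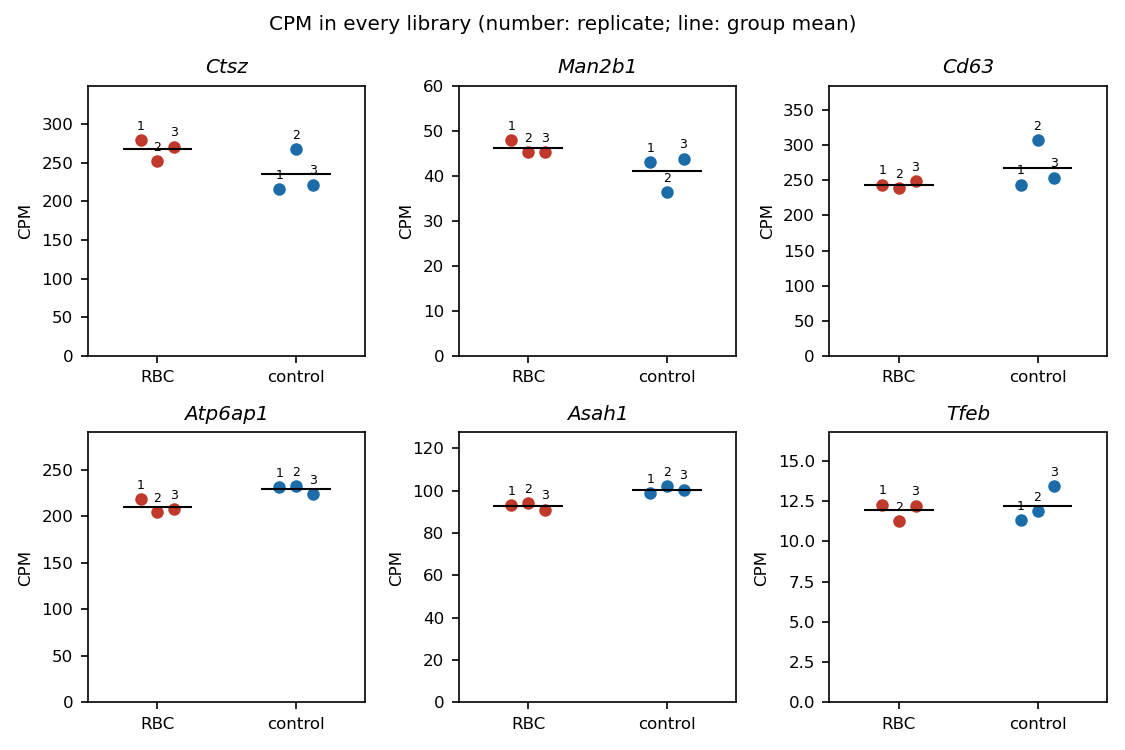
CPM of 6 genes in each RBC library (left, red) and each control library (right, blue), with the replicate number at each point, a line at the group mean and axes that start at 0. Control replicate 2 lies with the RBC libraries for Ctsz and apart from the other 5 libraries for Man2b1 and Cd63, while Atp6ap1 and Asah1 differ little and without overlap.

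The 10 glycosidases, which remove terminal sugars from glycoproteins, glycolipids and glycosaminoglycans, split into 5 positive and 5 negative fold changes (median -0.011). Man2b1, the lysosomal α-mannosidase, had 48.1, 45.3 and 45.4 CPM in RBC libraries, against 43.2, 36.4 and 43.9 CPM in controls. It was the 1 tested gene of the set with every RBC library above every control, which held for 10.4% of all tested genes. Its log2 fold change of 0.17 ± 0.08 did not pass (adjusted p = 0.535, edgeR) and was 0.087 without control replicate 2, its lowest library. Gaa, the acid α-glucosidase that degrades glycogen, was the most abundant of the group and had 240.3, 220.4 and 233 CPM in RBC libraries, against 227, 201 and 229 CPM in controls, with overlap. Gusb, the β-glucuronidase, had 109, 103 and 101 CPM in RBC libraries, against 97.1, 102 and 99.4 CPM in controls, also with overlap. The remaining 7, Hexa, Glb1, Gla, Idua, Naglu, Manba and Neu1, had log2 fold changes from -0.10 to 0.037.

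The 5 sulfatases cleave sulfate from glycosaminoglycans and sulfatides. Arsa, which acts on sulfatide, had 19.5, 21.8 and 21.4 CPM in RBC libraries, against 22.2, 22.0 and 23.5 CPM in controls. Its groups did not overlap, by a margin smaller than the spread within either, and the log2 fold change was -0.11 ± 0.07 (adjusted p = 0.646, edgeR). Arsb, which acts on dermatan and chondroitin sulfate, had 94.4, 86.8 and 90.5 CPM in RBC libraries, against 95.9, 85.0 and 89.9 CPM in controls, a log2 fold change of 0.0061 ± 0.07. Ids, Sgsh and Galns had log2 fold changes of -0.0062, 0.011 and 0.044, which were -0.085, -0.092 and -0.028 without control replicate 2. All 5 sulfatases were negative in that fit, with a median of -0.085 beside 0.0061 with all 6 libraries, and none was called.

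The 6 genes of lipid handling had 3 positive and 3 negative fold changes, and all 3 negative ones had every RBC library below every control, which held for 9.19% of all tested genes. Asah1, the acid ceramidase, had 93.2, 94.2 and 90.9 CPM in RBC libraries, against 98.8, 102 and 100.4 CPM in controls. The gap was small and the replicates close, with a log2 fold change of -0.11 ± 0.05 (adjusted p = 0.538, edgeR). Smpd1, the acid sphingomyelinase that makes ceramide, had 47.4, 44.5 and 46.3 CPM in RBC libraries, against 50.8, 50.2 and 48.8 CPM in controls, a log2 fold change of -0.11 ± 0.06 (adjusted p = 0.551, edgeR). Ppt1, a palmitoyl thioesterase, had 62.1 ± 1.54 CPM in RBC libraries and 66.0 ± 2.13 CPM in controls. Psap had 736, 706 and 734 CPM in RBC libraries, against 703, 726 and 699 CPM in controls, with overlap and a log2 fold change of 0.033 ± 0.05. Npc2, which passes cholesterol to Npc1, had 137, 139 and 128 CPM in RBC libraries, against 124, 145 and 124 CPM in controls. Control replicate 2 was again the library above the rest, and without it the log2 fold change of 0.12 came to an adjusted p of 0.0503 in edgeR. Lipa, the acid lipase, had 15.2 ± 0.85 CPM in RBC libraries and 15.2 ± 1.21 CPM in controls.

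Subunits of the proton pump mostly had small negative fold changes, of which none passed with all 6 libraries. Atp6ap1, an accessory subunit needed for assembly of the pump, had 219, 204 and 208 CPM in RBC libraries, against 231, 232 and 224 CPM in controls. Every RBC library was below every control, and this was the gene with an unadjusted p under 0.05 (0.048; adjusted p = 0.497, edgeR), with a log2 fold change of -0.12 ± 0.05 (0.919-fold, 95% interval 0.845 to 0.999). Without control replicate 2 it was called lower (0.924-fold, adjusted p = 0.0287, edgeR), where 3.77% of all tested genes were called lower. Atp6v0d1 of the membrane sector had 52.7, 53.2 and 51.4 CPM in RBC libraries, against 56.1, 63.6 and 54.0 CPM in controls, where replicate 2 was the highest library (log2 fold change -0.14, and -0.069 without it). Atp6v1h of the cytosolic sector had 90.3 ± 1.93 and 99.7 ± 9.10 CPM. Atp6v1a, the catalytic subunit, had the opposite sign (log2 fold change 0.044). Of 13 tested further subunits outside the set 12 had negative fold changes, so that 15 of 17 pump subunits were negative (88.2%, beside 51% of all tested genes), with a median log2 fold change of -0.12 and 0 calls. Without control replicate 2 the count was 14 of 17 and the median -0.07. With the offset for gene length and GC content they were 15 of 17 and -0.089, beside a median of -0.02 for all tested genes. The 17 subunits have short gene models (median 2150 bases, beside 3585 for all tested genes), and the part of length was not tested. The 1 positive subunit among the 13 further ones was Tcirg1, the a3 subunit typical of osteoclasts and macrophages. It had 65.7, 61.5 and 57.9 CPM in RBC libraries, against 52.5, 52.2 and 50.3 CPM in controls (log2 fold change 0.26 ± 0.06, adjusted p = 0.132, edgeR). Its RBC libraries all lay above its controls, which held for 10.4% of all tested genes. Without control replicate 2 Tcirg1 was called higher (adjusted p = 0.00021, edgeR), as were 4.19% of all tested genes.

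Neither regulator passed the test. Tfeb had 12.3, 11.2 and 12.2 CPM in RBC libraries, against 11.3, 11.9 and 13.4 CPM in controls, with overlap and a log2 fold change of -0.03 ± 0.09 (adjusted p = 0.907, edgeR). TFEB is controlled mainly by its phosphorylation and place in the cell, which RNA levels do not show. Grn, the precursor of the granulins that sustain lysosomal hydrolases, had 77.3, 68.4 and 70.0 CPM in RBC libraries, against 75.1, 77.3 and 68.8 CPM in controls.

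**Figure D4:**
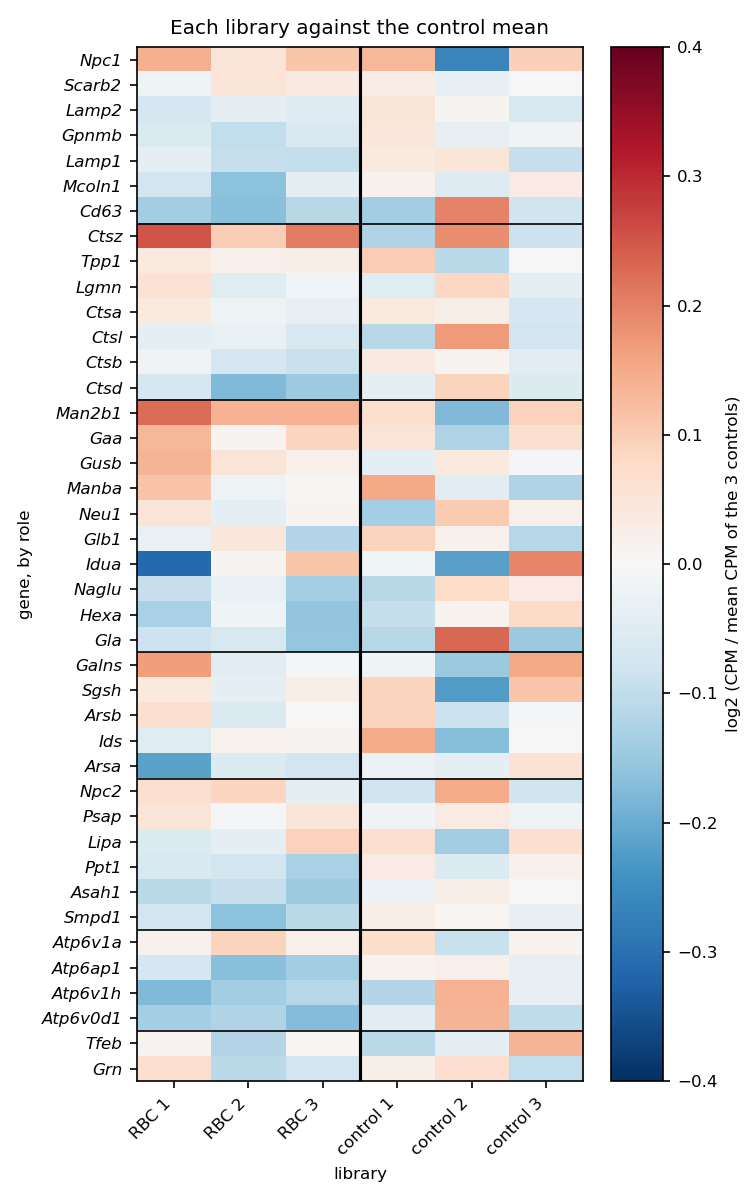
Log2 ratio of each library's CPM to the mean of the 3 controls for the 41 tested genes, with the RBC libraries left of the black line and genes grouped by role; red is above and blue below the control mean. Control replicate 2 holds many of the strongest colours, and Asah1, Smpd1 and Atp6ap1 are blue in all 3 RBC libraries.

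Within-group spread was wider in the controls because of 1 library. The median SD of the 41 tested genes was 3.26% of the mean in RBC libraries and 6.50% in controls, and 2.83% over control replicates 1 and 3. For 30 of the 41 genes (73.2%) control replicate 2 lay further from control replicates 1 and 3 than the RBC mean did, as in 75.9% of all tested genes. Its median distance was 0.125 on the log2 scale, against 0.051 for the RBC mean. Across the 41 genes, which share these libraries, its departure fell with gene model length (Spearman's rho = -0.45, a description over genes that are not independent), and over all tested genes rho was -0.668. The corresponding rho of the RBC difference was 0.157 and -0.053.

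**Figure D5:**
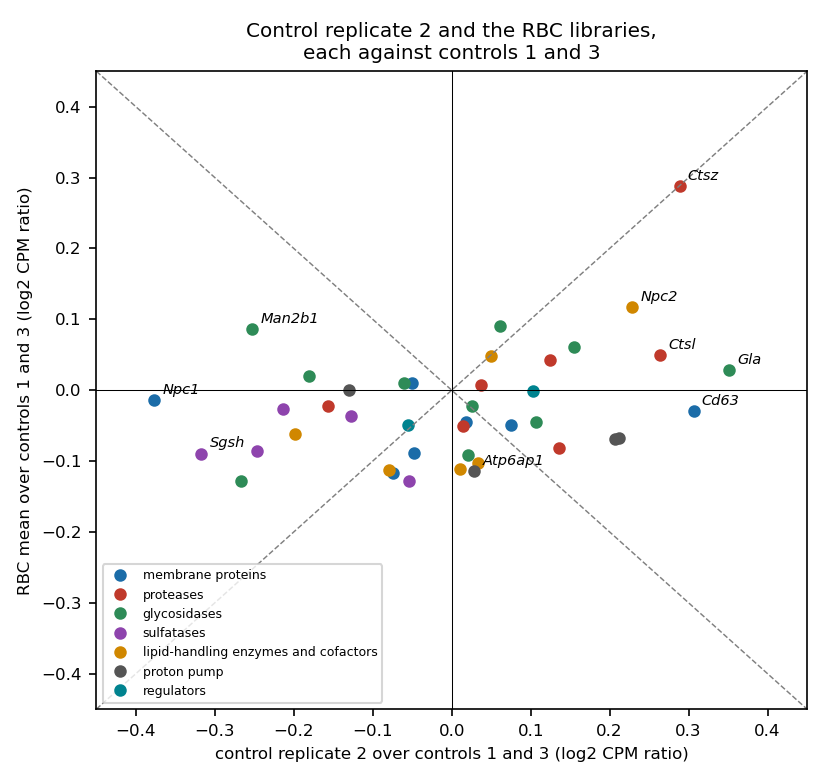
Log2 CPM ratio to the mean of control replicates 1 and 3 for control replicate 2 (x axis) and for the mean of the RBC libraries (y axis), 1 point per tested gene, coloured by role. Most points (30 of 41) lie nearer the horizontal axis than the vertical one, and Ctsz lies on the diagonal at 0.29 on both axes.

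Over the set, 8 of 41 tested genes had every RBC library below every control (9.19% of all tested genes did), namely Gpnmb, Ctsd, Arsa, Asah1, Smpd1, Ppt1, Atp6ap1 and Atp6v0d1. None of the 8 passed the threshold with all 6 libraries.

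Genes that serve the lysosome but lie outside the set gave 0 calls as well, in 120 tested genes of 6 lists (1.46% of all tested genes were called), with 18 of the 120 at an unadjusted p under 0.05 in edgeR, which 9.99% of all tested genes reached. Among 35 other lysosomal enzymes and transporters the median log2 fold change was 0.0003, and the smallest adjusted p was that of the membrane protein Laptm4a (294 CPM in RBC libraries and 330.2 CPM in controls on average). Of 14 genes of sorting to the lysosome 7 were positive, among them the sorting receptor Sort1 (0.17 ± 0.06). Of 18 genes of TFEB control and nutrient sensing 11 were negative (61.1%, beside 51% of all tested genes). Lamtor3 and Rraga, parts of the platform that recruits mTORC1, were at -0.17 and -0.16. In 23 autophagy genes the median was 0.0062 with 11 negative, and without control replicate 2 it was -0.023 with 18 negative. Map1lc3b, which encodes the autophagosome protein LC3B, was at -0.25 ± 0.07 (55.9 CPM in RBC libraries and 66.7 CPM in controls). The receptor Optn was at 0.15 ± 0.05. In 17 genes of lysosomal damage and exocytosis 13 were negative (51% of all tested genes were), and 11 of 17 without control replicate 2. Trim16 and Lgals9, which both act at damaged lysosomes, were at -0.20 and -0.19. The other listed galectin genes Lgals8, Lgals1 and Lgals3 were at 0.038, -0.016 and -0.053. Lgals1 and Lgals3 were at 0.058 and 0.039 without control replicate 2. Tecpr1 of the damage list was at 0.18 ± 0.07. Without control replicate 2, 8 of 121 were called in edgeR (7.96% of all tested genes). Ctss, Abca2, Tcirg1 and Optn were higher, and Laptm4a, Map1lc3b, Lgals9 and Trim16 were lower. Ctss was too low to test with all 6 libraries. It passed the filter of that fit through its RBC counts (31, against 1 over the controls), which favours a call.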

How the data were processed

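Per the labels' protocols, TRIzol was used for RNA extraction and a stranded mRNA kit for the libraries. The genome build is GRCm39, per the submitters' processing notes. No aligner, counter, strandedness of counting or gene annotation is named in the sources used here. The authors deposited raw counts per gene symbol and FPKM values of the same 15528 genes. The ratio of the deposited FPKM to the counts is 1 length per gene times the library total (largest relative departure 3.4e-07 over 12251 genes), so both tables hold the same reads, and gene model length was taken from that ratio. Groups and replicate numbers come from the sample titles. The labels do not say that same-numbered libraries share a batch, so the replicate number was not a block. Deviations of same-numbered libraries correlated at -0.014, 0.045 and 0.063, and those of differently numbered ones at -0.067 to 0.034. These small values do not decide whether a batch was shared.

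The main test was that of edgeR 4.0.16 in R 4.3.3 on the counts (filterByExpr with minimum count 10 and total 15, TMM scaling, glmQLFit and glmQLFTest, group only), which left 11208 genes with 99.96% of counts. P-values are two-sided and adjusted by the Benjamini-Hochberg method over all of them, with a threshold of 0.05. The SE is the log2 fold change over the root of F, and intervals use the fit's degrees of freedom. CPM are scaled to the library total. For control replicate 2, ratios were taken after adding 0.5 CPM. The procedure was tested on simulated counts with 200 changed genes.

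Members and gene lists were chosen with earlier results of these data known. Values in every library are given for the gene with the smallest p and the one with the highest FPKM in each role, for called genes, for genes called without control replicate 2, and for Tfeb, Gpnmb and Mcoln1. Ctsd, Smpd1, Npc2, Gusb, Atp6v0d1, Ctsc and the CPM of Tcirg1 were added after their values were seen. Of other lists, called genes and up to 3 with the smallest p were eligible, and Lgals1, Lgals3 and Lgals8 were added after their values were seen. Sequences are RefSeq's of GRCm38.p6, another build than that of the counts, and no coordinate was carried between the builds. Alternatives were RLE or no scaling, scaling without erythroid genes, DESeq2 1.42.0, limma 3.58.1 voom with and without library weights, no filter or 1 CPM in 3 libraries, the replicate block, a length and GC offset (GC known for 98.1% of tested genes), each library left out with the low-count filter rerun, and limma trend on log2(FPKM + 1) with or without a filter of 1 FPKM, or on log2(FPKM + 0.1).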

Additional observations from a re-analysis of the deposited data

How the results depend on the processing

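Under the 19 alternatives the number of lysosomal genes called stayed at 0 in each direction except in 3. Ctsz was the 1 gene called higher with library weights in voom and the 1 called higher with the length and GC offset. With each library left out in turn 0 to 1 were called higher and 0 to 1 lower, the calls being Ctsz and Atp6ap1 without control replicate 2. The median log2 fold change stayed negative: -0.044 with the length and GC offset, -0.022 with FPKM and no filter, and -0.037 to -0.017 with a library left out. Over all genes, the calls higher and lower numbered 130 and 34 with 6 libraries, 362 and 289 with library weights, and 208 and 180 with the length and GC offset. With a library left out they numbered 60 to 473 higher and 2 to 426 lower, both maxima without control replicate 2. DESeq2 called 60 lower. With the replicate block edgeR called 113 higher and 13 lower over all genes and 0 lysosomal genes, and the numbers mark no stated pairing. Fold changes near 0 changed sign. Arsb was at -0.019 with library weights, -0.026 with the length and GC offset and -0.037 to 0.050 with a library left out, Grn at 0.00899 with library weights and -0.0919 to 7.2e-05 with a library left out, and Tfeb at -0.0842 to 0.0421 with a library left out. The causes were not tested. Depth limits the least abundant genes most: the 95% interval of Idua reached from 0.738-fold to 1.27-fold.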
